A study of Mus musculus with 4 samples.

Results

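Endothelial cells, macrophages, B cells and T cells of control mouse hearts were compared between a library prepared without injury and a library prepared 3 days after myocardial infarction, the death of heart muscle that follows blockage of a coronary artery. A cell barcode, the tag that marks the RNA of 1 droplet, entered when it held at least 500 UMIs (unique molecular identifiers, each standing for 1 captured RNA molecule), at most 20% mitochondrial UMIs and fewer than 3 UMIs of the fibroblast genes Col1a2, Dcn and Pdgfra per 10000 UMIs. Endothelial barcodes held at least 2 UMIs of Pecam1, Cdh5 and Egfl7 together and none of Ptprc. Macrophage barcodes held at least 1 UMI of Csf1r and at least 5 of C1qa, C1qb and C1qc. B cell barcodes held at least 2 UMIs of Cd79a and Cd79b, and T cell barcodes at least 2 of Cd3e, Cd3d and Cd3g. Barcodes that met more than 1 class rule were dropped, 28 without injury and 83 after infarction. The 4 classes held 6685 of the 19352 barcodes deposited for the control hearts and of the 41766 in the series. These genes chose the barcodes, and their levels are not results.

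Both control hearts carried Tcf21-MerCreMer, a Cre recombinase that Tamoxifen switches on, driven from Tcf21, a gene of cardiac fibroblasts and their precursors, and all hearts of the series had received Tamoxifen. Controls therefore carry the Cre and the drug, and neither control library is from an untreated wild-type heart. The other 2 libraries come from hearts labelled Tcf21-MerCreMer:flox, in which the study deletes Tcf21 in cardiac fibroblasts, again without injury and after infarction, and they are given below as the same contrast in libraries that share no sample with the control pair. Cells were flow-sorted as live and nucleated from digested tissue and read with the 10x 3' method, with 16000 cells loaded for a target of 10000. Each of the 4 groups is 1 library. In barcodes past the fibroblast limit Tcf21 was at 65.3 CPM in the uninjured control library and 99.4 CPM in the uninjured flox-labelled one. After infarction it was at 19.5 and 27.6 CPM, so its level was not lower under the flox label. These barcodes are not fibroblasts alone, since 2641 of the 4933 in the uninjured control library also met the endothelial rule. How far other cells dilute Tcf21 in each library was not tested. Whether the 3' end that is read lies in the deleted part is not given in the sources used here, and outside it the level checks nothing. The labels give no number of animals, sex or age, so no spread between animals can be had and no test was run. Every interval below is a 95% Clopper-Pearson interval that covers counting error alone.

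Capillary endothelium of the heart takes fatty acids from blood for the heart muscle, and after injury endothelial cells can divide and build new vessels. Macrophages of the uninjured heart are long-lived residents that clear debris and present antigen, and infarction brings in monocytes from blood that become macrophages. B cells and T cells are a minority in both states, circulating or lodged in the tissue. Dying muscle, low oxygen and inflammatory signals can reach all of these cells, so a change may be shared by the classes or belong to 1 of them.

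The endothelial class held 2959 barcodes without injury and 209 after infarction. Macrophages numbered 500 and 1893, B cells 230 and 553, and T cells 64 and 277. Of the barcodes under the fibroblast limit, endothelial ones made up 73.7% (72.3 to 75.1) without injury and 2.58% (2.25 to 2.95) after infarction, and macrophages 12.5% (11.5 to 13.5) and 23.4% (22.5 to 24.3). After infarction 5074 barcodes fell in no class, of which 2866 carried neutrophil markers, against 18 such neutrophil barcodes without injury. These are shares of sorted cells, and numbers of cells per heart were not measured. Median UMIs per barcode were 4042 and 7875 in endothelium, 8612 and 21021 in macrophages, 3464 and 2500 in B cells, and 5349.5 and 4072 in T cells, without injury first. UMIs were summed over the barcodes of a class, which gave 14004844 and 2197780 UMIs for endothelium, 5092507 and 45946144 for macrophages, 925525 and 2119568 for B cells, and 404617 and 1435660 for T cells.

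The fibroblast limit weighed unevenly on the libraries. It set aside 2641 further endothelial barcodes without injury, of which 753 held a single fibroblast UMI, and 71 after infarction. At the class limits themselves, 20 endothelial barcodes without injury stood exactly at 2 UMIs and 43 stood 1 UMI under it. After infarction 26 B cell barcodes stood at the limit and 98 were 1 UMI under it. The control libraries shared 21 barcode sequences, 1 of them in the classes.

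Each class's marker list includes the genes that chose its barcodes, so the rule fixed part of what follows. All 15 endothelial, 14 macrophage, 12 B cell and 14 T cell markers listed had UMIs in their class in both control libraries. Levels are in CPM, which is UMIs after the class sum is scaled to 1000000. The summed marker level was 14230 without injury and 8285 after infarction in endothelium, 28892 and 18820 in macrophages, 12489 and 8742 in B cells, and 5296 and 5639 in T cells. The T cell class also held natural killer cell markers, with 9 of 10 found in each library and 947 and 1222 CPM in all. Markers of heart muscle went from 505 to 63.2 CPM in endothelium and from 291 to 7.36 CPM in macrophages, and fibroblast markers from 560 to 146 CPM in endothelium and from 384 to 316 CPM in macrophages. The fibroblast list includes Col1a2, Dcn and Pdgfra, which the fibroblast limit holds low.

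Each class also held RNA of the cells that dominated its library, and this moved with infarction. Without injury the endothelial markers stood in macrophages, B cells and T cells at medians of 0.0977, 0.133 and 0.101 of their endothelial level. After infarction these medians were 0.00356, 0.00159 and 0.000588. The summed endothelial markers fell from 1406 to 48.6 CPM in macrophages, from 1957 to 76.0 CPM in B cells and from 1441 to 44.6 CPM in T cells. Macrophage markers went the other way, from 0.00935 to 0.133 of the macrophage level in B cells and from 0.00555 to 0.119 in T cells, with summed levels of 273 and 2401 CPM in B cells and 195 and 1815 CPM in T cells. Neutrophil markers went in B cells from 15.1 to 2688 CPM and in T cells from 29.7 to 3658 CPM. In macrophages they went from 48.5 to 1245 CPM and in endothelium from 44.1 to 526 CPM. Few barcodes held much of this. More than 1% of UMIs came from macrophage markers in 11 of 553 B cell barcodes, and from neutrophil markers in 23 of them, while the median B cell barcode held 452 CPM of macrophage markers and 0 of neutrophil markers. Below, a ratio called without the richest 10% leaves out the 10% of barcodes of each class and library with the highest share of other cells' markers. How much of a gene's change such RNA gives was not tested.

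**Figure D1:**
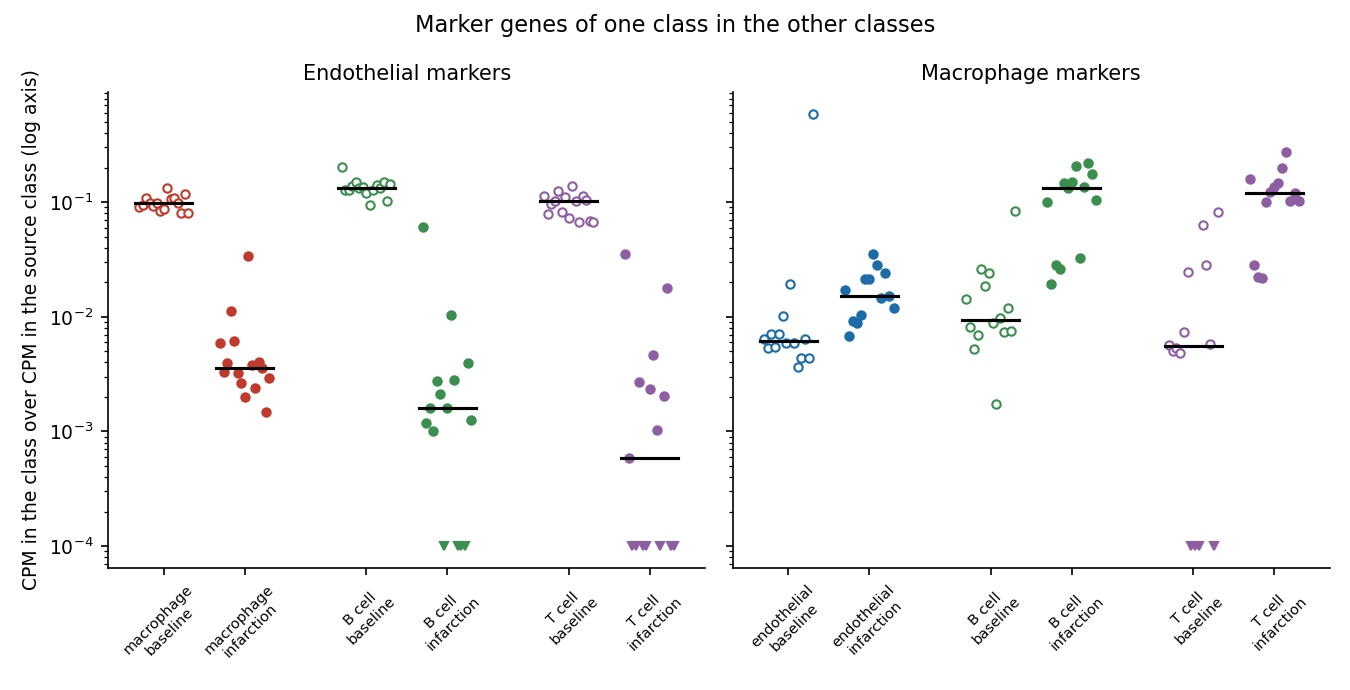
Level of each endothelial marker (left) and macrophage marker (right) in the other classes, as a ratio to its CPM in its own class on a log axis. Open points are the control library without injury, filled points the infarction library, black bars medians and triangles genes at a ratio of 0.0001 or less. Endothelial markers sit near 0.1 in the 3 immune classes without injury and far lower after infarction, while macrophage markers rise to 0.133 in B cells and 0.119 in T cells.

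A gene was measured in a class when it reached 50 CPM and 30 UMIs in either sum, and it was called higher or lower after infarction when its CPM differed by at least 2-fold. Counts under 3 UMIs were raised to 3 in ratios. A gene low without injury could be measured only through the infarction library, where it then had to be higher, so counts over the measured members of a list are descriptions, and summed levels of all listed genes are given beside the main ones. The calls are sizes, not tests, and rose or fell below mean a change of that size or of a whole list. In endothelium 679 of 4115 measured genes were higher (16.5%) and 796 lower (19.3%), and the median log2 ratio over all measured genes was -0.06. Values are given in the order without injury, then after infarction.

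The endothelial sum 3 days after infarction held far less of the RNA by which capillaries take up fatty acids and more of the RNA for cell division and glycolysis. Such a sum cannot tell a change in the mix of endothelial cells from a change within them. Of 22 measured genes of capillaries and fatty acid transport, 18 were lower and none higher, with a median log2 ratio of -2.19. All 24 listed genes together went from 42702 to 15785 CPM. The rule that named genes took the 10 highest and 10 lowest ratios of a class, leaving out genes that may be free RNA. Timp4, which encodes an inhibitor of matrix metalloproteinases, was the lowest of them, and lies on chromosome 6 from 115241892 to 115252205 (mm10). It went from 584 to 9.10 CPM (log2 ratio -6.00, 95% interval -6.72 to -5.38). In the flox-labelled hearts it went from 295 to 93.1 CPM, so it was lower in both pairs by different amounts. Aqp7, a glycerol channel, went from 221 to 8.65 CPM (log2 ratio -4.67, 95% interval -5.41 to -4.03), and from 252 to 43.3 CPM in flox-labelled hearts.

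Several genes of lipid handling fell. Lpl encodes lipoprotein lipase, which frees fatty acids from blood lipoproteins, and went from 1158 to 91.0 CPM (log2 ratio -3.67). Cd36, which encodes a fatty acid translocase, went from 5506 to 616 CPM (log2 ratio -3.16). The membrane carbonic anhydrase gene Car4 went from 285 to 33.7 CPM (log2 ratio -3.08). Fabp4, which encodes the fatty acid chaperone of capillaries, went from 17492 to 8789.8 CPM (log2 ratio -0.99) and just missed the 2-fold rule. Gpihbp1, whose product anchors lipoprotein lipase to the capillary wall, went from 1733 to 1091 CPM (log2 ratio -0.67). Lpl and Cd36 were thus lower by more than Fabp4 and Gpihbp1. Btnl9, a capillary marker, went from 819.5 to 80.1 CPM (log2 ratio -3.36), and Cxcl12, a chemokine, from 2715 to 485 CPM (log2 ratio -2.49). In flox-labelled hearts the list's median was -1.17, with Lpl at -0.98 and Cd36 at -1.59 on the log2 scale.

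The remaining named genes that fell encode regulators of several kinds. Akap5, an anchor for protein kinase A, went from 50.8 to 1.37 CPM with 3 UMIs left after infarction (log2 ratio -5.22, 95% interval -7.50 to -3.66). Cdkn1c, an inhibitor of cyclin-dependent kinases, went from 407 to 29.1 CPM (log2 ratio -3.81), and Xdh, xanthine dehydrogenase, from 468 to 33.7 CPM (log2 ratio -3.80). The long non-coding AU020206 went from 113 to 5.46 CPM (log2 ratio -4.37), and Slc26a10 from 172 to 11.8 CPM (log2 ratio -3.86). Zbtb16, a transcription factor gene induced by glucocorticoids, went from 79.1 to 5.46 CPM (log2 ratio -3.86). It stood at 3.82 and 6.78 CPM in flox-labelled hearts, below the uninjured control level in both. Of 16 measured glucocorticoid-responsive genes, 10 were lower and 2 higher in the control pair, with a median of -1.26. The flox-labelled median was -0.20. The inducible heat shock gene Hspa1a differed in the same way, with a log2 ratio of -3.47 in control and 0.29 in flox-labelled hearts. Circadian clock genes also differed in direction between the pairs, with a median of -1.44 over 4 measured in control and of 1.13 in flox-labelled hearts. Leaving out the 3 of these 4 that stood under 0.5 of another population's level turned the control median to 0.19. How these control values would vary among animals was not measured.

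The named genes that rose were of mixed function. Plvap, which builds the diaphragms of endothelial pores and is low in healthy heart capillaries, lies on chromosome 8 from 71497765 to 71511752 and went from 6.35 to 203 CPM (log2 ratio 5.0, 95% interval 4.67 to 5.35). It went from 2.72 to 216 CPM in flox-labelled hearts. Pgf, placental growth factor, a ligand of the receptor encoded by Flt1, went from 10.8 to 480.0 CPM (log2 ratio 5.48, 95% interval 5.23 to 5.73), and from 7.54 to 243 CPM in flox-labelled hearts. AA467197, which gives rise to a microRNA of inflammation and whose protein is a mitochondrial subunit, went from 3.28 to 749.8 CPM (log2 ratio 7.83, 95% interval 7.41 to 8.29) and was spread over 149 of 209 barcodes. Inhbb, which encodes an activin subunit, went from 1.57 to 89.2 CPM (log2 ratio 5.83), Slc16a3, the lactate exporter, from 1.79 to 76.0 CPM (log2 ratio 5.41), and Akr1b8, an aldo-keto reductase, from 0.714 to 95.6 CPM (log2 ratio 7.06). Plpp2, a lipid phosphatase gene, went from 1.29 to 52.3 CPM (log2 ratio 5.35) and Sh2d5 from 1 to 131 UMIs (log2 interval 7.20 to 15.02).

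Some of these ratios rest on few barcodes. Gal, which encodes the neuropeptide galanin and had the highest ratio, was read as 1 UMI without injury and 254 after infarction (log2 interval 8.17 to 15.97), and 193 of those came from 1 of 209 barcodes. H19, a long non-coding RNA of fetal tissue, went from 12 to 129 UMIs, of which 107 came from 1 barcode, and its log2 ratio of 6.10 was 3.92 without the richest 10%. Plvap and Pgf were spread wider, over 79 and 101 of 209 barcodes. Without the fibroblast limit, where barcodes with fibroblast RNA enter mostly without injury, the log2 ratio was 2.23 for H19, 2.86 for Inhbb, 3.73 for Akr1b8, 3.84 for Pgf and 3.42 for Plvap.

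The list of angiogenic and tip cell genes was mixed, with 8 of 26 higher, 3 lower and a median of 0.30. Apln, the ligand of the apelin receptor and a marker of sprouting tips, went from 37.2 to 334 CPM (log2 ratio 3.17). Col18a1, whose collagen is cut to endostatin, went from 27.3 to 355 CPM (log2 ratio 3.70). Kdr, the main receptor for vascular endothelial growth factor, went from 2168 to 464 CPM (log2 ratio -2.23). Of 18 measured adhesion and activation genes 5 were higher and 5 lower. Selp, P-selectin, went from 4.86 to 94.2 CPM (log2 ratio 4.28), with 69 of its 207 UMIs after infarction in 1 barcode. Arterial genes were lower in 4 of 11 and higher in none, and venous and endocardial genes higher in 5 of 13 and lower in 1. The infarction library alone brought in 5 of the 26 angiogenic genes, 6 of 18 adhesion, 1 of 11 arterial and 6 of 13 venous. These counts of higher genes are therefore no support of their own. All listed genes together went from 15350 to 14623 CPM (angiogenic), 4665 to 3314 (adhesion), 1528 to 1028 (arterial) and 1145 to 1562 (venous).

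Division genes were higher in the endothelial sum. All 40 listed genes of G2 and M phase together went from 293 to 1921 CPM, and all 32 listed S-phase genes from 462 to 1246 CPM. Of the 15 G2 and M-phase genes measured, 14 were higher and none lower, and the other 25 stayed under the level needed in both libraries. Since 14 of the 15 reached the level needed in the infarction library alone, this count is no support of its own. Birc5, survivin, went from 4.07 to 115 CPM (log2 ratio 4.82), and Mki67, the proliferation antigen, from 29.7 to 134 CPM (log2 ratio 2.18). To set aside depth, each barcode was thinned to 1500 UMIs, which left 2860 endothelial barcodes without injury and 195 after infarction. Mki67 was then found in 0.594% (0.347 to 0.95) and 8.21% (4.76 to 13) of barcodes, against 0.946% and 17.7% unthinned. Birc5 was found in 0.175% and 6.15%, against 0.406% and 18.7% unthinned. In thinned macrophage barcodes Birc5 was at 0.402% and 4.92%, so the endothelial share after infarction was little above that of another class. Plvap went from 0.455% to 21.0% thinned (1.05% and 37.8% unthinned), Pgf from 0.769% to 32.3%, Aqp7 from 27.4% to 0.513%, Lpl from 66.1% to 15.4% and Timp4 from 44.1% to 1.54%. In macrophages, which should lack Plvap, 0 of 498 and 0.106% of thinned barcodes held it, at median depths of 8612 and 21021 UMIs. A count of 0 in 498 allows up to 0.602% when the limit is set at 3 counts, the limit used for every count of 0 here.

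Among metabolic and structural genes of endothelium, 16 of 24 measured glycolysis and hypoxia-induced genes were higher and none lower, with a median of 1.54. Of those 24, 5 reached the level needed in the infarction library alone, and all listed genes together went from 2466 to 7048 CPM. Of 78 ribosomal protein genes 39 were higher, with a median of 1.0 against 0.34 in flox-labelled hearts, and 12 of 22 genes of translation and ribosome biogenesis were higher. Actin cytoskeleton genes were higher in 20 of 30. The infarction library alone brought in 7 of the 22 translation and 7 of the 30 actin genes. All listed genes together went from 2175 to 5918 CPM (translation) and from 20651 to 53734 CPM (actin). Vim, vimentin, the intermediate filament of mesenchymal and endothelial cells, went from 828 to 6523 CPM (log2 ratio 2.98). Interferon-stimulated genes were lower in 11 of 27 and higher in none, with medians of -0.87 in control and -0.85 in flox-labelled hearts. Genes of MHC class I presentation, which display peptides to cytotoxic T cells, were lower in 5 of 16.

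**Figure D2:**
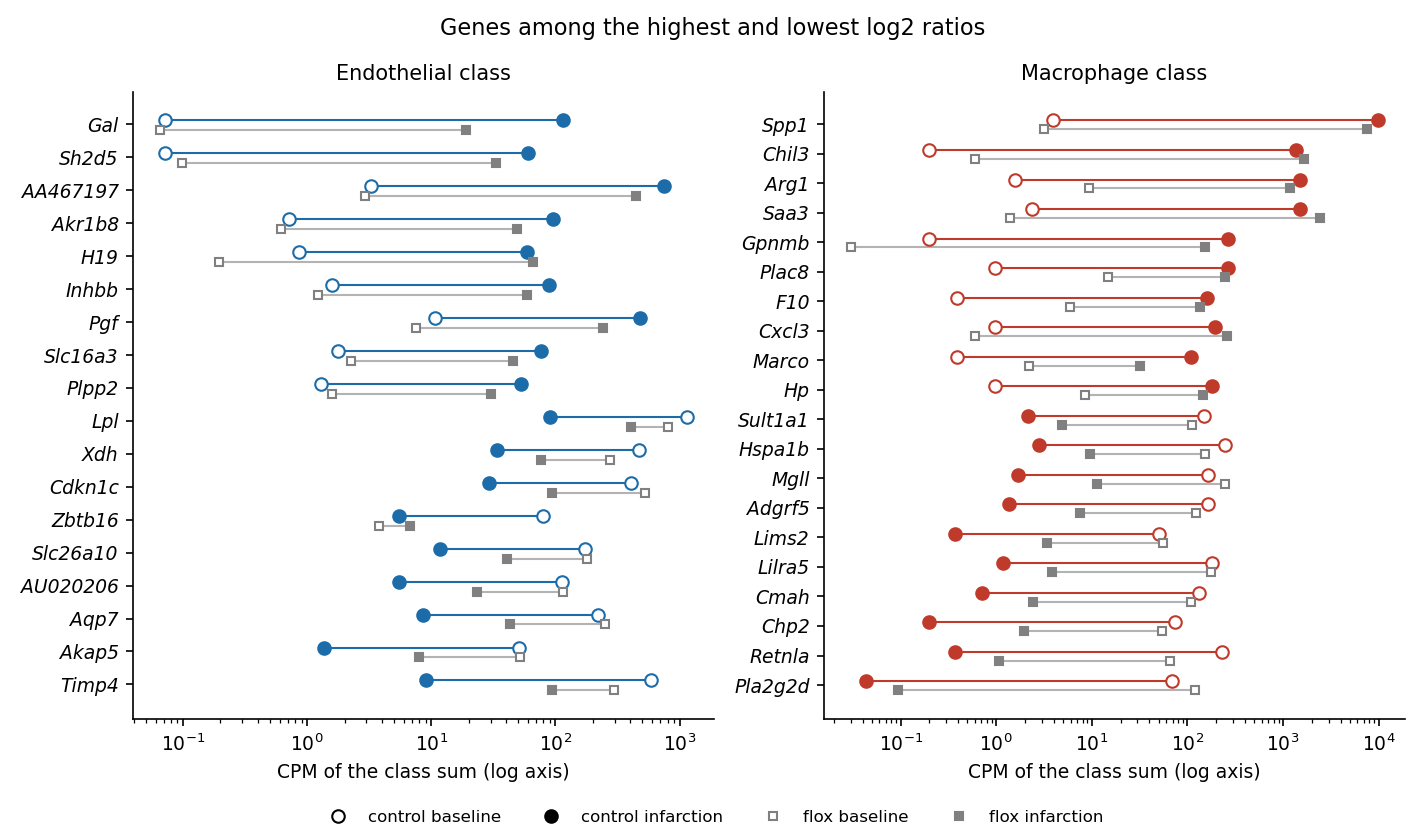
CPM of the class sum (log axis) for named genes among the 10 highest and 10 lowest of endothelium (left) and macrophages (right). Open circles are the control library without injury, filled circles the control infarction library, grey squares the flox-labelled libraries in the same order, and levels under 0.03 CPM are drawn at 0.03. Timp4 falls from 584 to 9.10 CPM and Spp1 rises from 3.93 to 9924 CPM.

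Of 3719 genes measured in macrophages, 572 rose (15.4%) and 814 fell (21.9%), around a class median of -0.09. Most genes of resident cardiac macrophages were lower in the class sum, and most of those of recruited monocytes and of lipid-associated macrophages higher. Of 24 measured resident macrophage genes, 19 were lower and none higher, with a median of -2.15 in control and -1.49 in flox-labelled hearts. Of 20 monocyte and recently recruited macrophage genes, 17 were higher and none lower, with medians of 3.83 and 3.23. Of the 20 monocyte genes measured, 13 reached the level needed in the infarction library alone, and all 23 listed went together from 12621 to 24677 CPM. The 27 listed resident genes together went from 16324 to 6657 CPM. A sum over a class cannot tell a replacement of cells from a change within them.

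Spp1, which encodes the secreted glycoprotein osteopontin, lies on chromosome 5 from 104435118 to 104441050 and went from 3.93 to 9924 CPM (log2 ratio 11.30, 95% interval 10.68 to 12.01). In flox-labelled hearts it went from 3.18 to 7554 CPM, so both infarction libraries were high and both uninjured libraries low. Arg1, arginase, went from 1.57 to 1499 CPM (log2 ratio 9.90, 95% interval 8.92 to 11.11), and from 9.33 to 1173 CPM in flox-labelled hearts. Gpnmb, a glycoprotein of phagocytes full of lipid, was read as 1 UMI and 12244 UMIs (log2 interval 7.93 to 15.71). Thinned to 1500 UMIs, Spp1 was found in 0.402% of 498 and 84.7% of 1891 macrophage barcodes (2.60% and 98.0% unthinned), Arg1 in 0.201% and 53.4%, and Gpnmb in 0 (3 counts of 498 being 0.602%) and 19.0%. The Spp1 rise thus covered most macrophage barcodes. Spp1 was also found in 32.3% of thinned B cell barcodes after infarction (median depth 2500 UMIs) and in none of 225 before (3 counts of 225 being 1.33%). How much of the share in B cells is RNA of other cells was not tested.

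Other named genes that rose are secreted or monocyte genes. Saa3, an acute-phase protein gene, went from 2.36 to 1503 CPM (log2 ratio 9.32), and Thbs1, thrombospondin, from 6.87 to 1206 CPM (log2 ratio 7.45). Fn1, fibronectin, went from 46.5 to 2289 CPM (log2 ratio 5.62). Marco, a scavenger receptor of bacterial and debris uptake, went from 2 to 5057 UMIs (log2 interval 6.28 to 11.18) and F10, coagulation factor X, from 2 to 7388 UMIs (6.82 to 11.72). Ly6c2, a marker of classical monocytes, went from 0.785 to 73.7 CPM (log2 ratio 6.55), Plac8 from 0.982 to 268 CPM (log2 ratio 8.09) and the monocyte chemokine receptor gene Ccr2 from 99.8 to 285 CPM (log2 ratio 1.51). Chil3, a chitinase-like gene of monocytes and granulocytes, went from 1 to 62600 UMIs (10.28 to 18.06), Cxcl3, a neutrophil-attracting chemokine, from 0.982 to 194 CPM (log2 ratio 7.63) and Hp, haptoglobin, from 0.982 to 182 CPM (log2 ratio 7.54). These last 3 stood in macrophages at 0.361, 0.170 and 0.138 of their level in the population where they were highest, beside the neutrophil markers at 1245 CPM given above.

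The list of lipid-associated macrophage genes had 19 of 23 higher and 2 lower, and a median of 2.91. Its 24 genes together went from 31845 to 61831 CPM. Of the 23 measured, 6 reached the level needed in the infarction library alone. Fabp5, a fatty acid chaperone, went from 88.2 to 2626 CPM (log2 ratio 4.90), Trem2, a lipid-sensing receptor, from 215 to 579 CPM (log2 ratio 1.43) and the lysosomal protease gene Ctsd from 387 to 3901 CPM (log2 ratio 3.33). Apoe, apolipoprotein E, went the other way, from 20711 to 8032 CPM (log2 ratio -1.37). Glycolysis and hypoxia-induced genes were higher in 17 of 21 and lower in 1, with a median of 2.13, and oxidative stress genes higher in 13 of 20. The infarction library alone brought in 7 of the 21 and 4 of the 20. All listed genes together went from 1858 to 10011 CPM (glycolysis) and from 14603 to 46457 CPM (oxidative stress). Hmox1, which breaks down haem, went from 207 to 1409 CPM (log2 ratio 2.76). Only 3 genes of G2 and M phase were measured in macrophages and none of them was 2-fold higher, all 40 listed went together from 444 to 795 CPM, and Mki67 was found in 2.01% and 5.92% of thinned macrophage barcodes (6.80% and 21.2% unthinned).

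Resident genes included several uptake receptors. Lyve1, a hyaluronan receptor of resident macrophages along vessels, lies on chromosome 7 from 110850607 to 110863239 and went from 739 to 12.3 CPM (log2 ratio -5.91, 95% interval -6.04 to -5.78), and from 392 to 37.6 CPM in flox-labelled hearts. Timd4, which binds phosphatidylserine on dying cells, went from 80.5 to 3.66 CPM (log2 ratio -4.46), Cd163, the receptor for haemoglobin bound to haptoglobin, from 770.2 to 66.7 CPM (log2 ratio -3.53) and Folr2, a folate receptor, from 484 to 84.4 CPM (log2 ratio -2.52). Mrc1, the mannose receptor, went from 1867 to 289 CPM (log2 ratio -2.69). Thinned shares moved the same way, with Lyve1 at 36.9% and 1.16% of barcodes (57.6% and 5.07% unthinned), Timd4 at 10.2% and 0.476% (37.6% and 3.06% unthinned) and Cd163 at 47.6% and 5.50%. Lyve1 was at 1.15% and 1.54% of thinned endothelial barcodes, a class that can hold lymphatic endothelium with Lyve1 of its own, and at 2 of 225 and 1 of 530 thinned B cell barcodes.

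The lowest named ratios were as follows. Pla2g2d, a secreted phospholipase gene, went from 350 to 2 UMIs (log2 interval -13.68 to -8.76). Retnla, a marker of alternatively activated macrophages, went from 229 to 0.370 CPM (log2 ratio -9.27) and was at 65.9 and 1.08 CPM in flox-labelled hearts. Chp2 went from 74.8 to 0.196 CPM (log2 ratio -8.58), Cmah, the hydroxylase that makes a sialic acid, from 132 to 0.718 CPM (log2 ratio -7.52), Lilra5 from 179 to 1.18 CPM (log2 ratio -7.25) and the sulfotransferase gene Sult1a1 from 149 to 2.15 CPM (log2 ratio -6.11). Hspa1b, an inducible heat shock gene, went from 246 to 2.83 CPM (log2 ratio -6.44). Lims2, Adgrf5 and Mgll were also among the 10 lowest, with log2 ratios of -7.10, -6.91 and -6.59, but stood in uninjured macrophages at 0.115, 0.108 and 0.102 of their endothelial level, near the median of 0.0977 that endothelial markers had there.

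Antigen presentation by MHC class II was lower as a group, with 7 of 8 measured genes lower and medians of -2.36 in control and -2.41 in flox-labelled hearts. H2-Aa, a class II chain, went from 3644 to 520.2 CPM (log2 ratio -2.81), Cd74, the chain that guards the peptide groove, from 10885 to 1864 CPM (log2 ratio -2.55) and Ciita, the master regulator of these genes, from 76.2 to 6.38 CPM (log2 ratio -3.58). In B cells, which carry the same genes, the median of 12 measured was 0.06, with 1 higher and none lower. Immediate-early and dissociation-induced genes were lower in 20 of 27 and higher in 1, with a median of -1.71. Jun went from 3802 to 335 CPM (log2 ratio -3.50), Fos from 5124 to 1169.5 CPM (log2 ratio -2.13) and Egr1 from 1003 to 102 CPM (log2 ratio -3.30). Glucocorticoid-responsive genes were lower in 9 of 16, with medians of -1.22 in control and -0.37 in flox-labelled hearts, and interferon-stimulated genes lower in 8 of 18 and higher in 1.

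Of 3340 genes measured in B cells, 258 rose (7.72%) and 410 fell (12.3%), around a class median of -0.20. Scaled by the median of ratios in place of total UMIs, the split turned to 377 higher and 280 lower. The 10 highest and 10 lowest genes under the naming rule were genes of other cells, led by Spp1 (1 and 2478 UMIs), Chil3, Thbs1 and Ccl2 on 1 side and by Cavin2, Kdr, Flt1 and Ly6c1 on the other. Spp1 stood at 0.118 and Ccl2 at 0.201 of the level in the population where they were highest, and Cavin2 at 0.137 and Kdr at 0.139. Without the richest 10%, the log2 ratio of Ccl2 went from 6.08 to 1.87, and 120 genes were higher and 254 lower. With possible doublets removed, 121 were higher and 270 lower. Genes that stood in B cells at 0.5 or more of their level in every other population gave 49 higher and 215 lower. The B cell genes named from here were taken from those, from the gene lists or from the class-specific rule, and the choice among those of their own was made after the values were seen.

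Some genes of naive and follicular B cells were lower after infarction. Of 30 measured genes of that list, 8 were lower and none higher, with a median of -0.81 in control and -0.81 in flox-labelled hearts, and 6 were lower with a median of -0.70 without the richest 10%. Fcer2a, the low-affinity IgE receptor CD23 of follicular B cells, lies on chromosome 8 from 3681737 to 3694175 and went from 386 to 102 CPM (log2 ratio -1.91, 95% interval -2.16 to -1.67). It was at -1.83 without the richest 10%, and in flox-labelled hearts it went from 232 to 123 CPM. Thinned, 40.0% of 225 and 15.5% of 530 B cell barcodes held it (63.9% and 24.8% unthinned), against 0.175% of endothelial barcodes without injury. Cr2, complement receptor 2, went from 99.4 to 37.3 CPM (log2 ratio -1.42), and Cxcr5, which guides B cells to follicles, from 146 to 55.7 CPM (log2 ratio -1.39), with a flox-labelled ratio of 0.10. Klf2, a factor of recirculating lymphocytes, went from 2005 to 970.5 CPM (log2 ratio -1.05), a call lost under 4 alternatives (down to -0.78 by the mean of CPM per barcode), and Ets1 from 1119 to 440.2 CPM (log2 ratio -1.35). Cd55, a brake on complement, went from 586 to 215 CPM (log2 ratio -1.44). Ms4a1, which encodes CD20, went from 735 to 379 CPM (log2 ratio -0.96), and Ighd, the IgD constant region that naive cells carry, from 919 to 519 CPM (log2 ratio -0.83), both short of 2-fold.

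Interferon-stimulated genes were lower in 7 of 14 measured in B cells and higher in none, with a median of -0.98 and of -0.51 in flox-labelled hearts. Ifi203 went from 545 to 159 CPM (log2 ratio -1.77) and Slfn5 from 166 to 47.7 CPM (log2 ratio -1.80). Sec61a1, a subunit of the channel into the endoplasmic reticulum, went from 231 to 65.6 CPM (log2 ratio -1.82). Among genes higher in B cells, Id2, an inhibitor of helix-loop-helix factors, went from 6.48 to 160.4 CPM (log2 ratio 4.63) and was at 4.40 without the richest 10%, but at 0.77 in flox-labelled hearts. Neither Id2 nor Slfn5 was among the genes that stood in B cells at 0.5 or more of their level in every other population. Crem, a repressor in cyclic AMP signalling, went from 22.7 to 79.7 CPM (log2 ratio 1.81), H2afz, the histone variant, from 176 to 659 CPM (log2 ratio 1.90) and Mif, a cytokine, from 162 to 518 CPM (log2 ratio 1.68). Calca, the calcitonin gene, was read as 0 and 192 UMIs, at least 27.9-fold higher against a floor of 3 UMIs, and 190 of those UMIs came from 1 of 553 barcodes. Iglv1, a light chain variable gene, went from 27.0 to 121 CPM (log2 ratio 2.17), with 157 of 257 UMIs from 1 barcode. Of 14 measured glycolysis and hypoxia-induced genes, 11 stood under 0.5 of another population's level. Of the 14, 9 were higher, with a median of 1.55 and of 1.24 without the richest 10%. The infarction library alone brought in 4 of the 14, and all listed genes together went from 1544 to 4005 CPM. Pgk1, phosphoglycerate kinase, had a log2 ratio of 2.11 and of 1.63 without them.

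Of 2802 genes measured in T cells, 224 rose (7.99%) and 203 fell (7.24%), around a class median of 0.00, with only 64 barcodes behind the sum without injury. The 10 highest and 10 lowest under the naming rule were again genes of other cells, with Chil3, Lyz2 and Fn1 at 0.118, 0.119 and 0.142 and Flt1, Kdr and Fabp4 at 0.126, 0.101 and 0.103 of the level in the population where they were highest. Without the richest 10% the counts were 104 higher and 123 lower, and with possible doublets removed 106 and 111. Genes at 0.5 or more of every other population gave 55 higher and 109 lower, and the T cell genes below were chosen from those or from the lists, after their values were seen.

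The T cell genes of this choice that rose included granzyme, checkpoint and division genes, and those that fell included gamma delta and natural killer-type receptor genes. All 40 listed G2 and M-phase genes together went from 947 to 1225 CPM, with 3 of 7 measured higher and 1 lower. Of those 7, 6 reached the level needed in the infarction library alone. Natural killer cell markers, a list that holds both Gzma and Klre1, together went from 947 to 1222 CPM. Gzma, a granzyme of cytotoxic cells, lies on chromosome 13 from 113093825 to 113100981 and went from 44.5 to 245 CPM (log2 ratio 2.46, 95% interval 1.78 to 3.23), with 3.57 without the richest 10%. It was found in 4.76% (0.993 to 13.3) of 63 and 9.45% (6.27 to 13.5) of 275 thinned barcodes (6.25% and 13.4% unthinned), and these intervals overlap. Gzmk, another granzyme gene, went from 17.3 to 59.2 CPM (log2 ratio 1.77). Ctla4, an inhibitory receptor of regulatory and activated T cells, went from 12.4 to 76.6 CPM (log2 ratio 2.63, 95% interval 1.37 to 4.28). Batf, a factor of effector differentiation, went from 19.8 to 60.6 CPM (log2 ratio 1.62), Socs3, a brake on cytokine signalling, from 42.0 to 254 CPM (log2 ratio 2.59) and Hif1a, the oxygen-regulated factor, from 66.7 to 187 CPM (log2 ratio 1.48). Top2a, a topoisomerase of dividing cells, went from 9.89 to 80.1 CPM (log2 ratio 3.02) with 27 of 277 barcodes holding it after infarction, and the linker histone gene Hist1h1b went from 3 to 159 UMIs (log2 interval 2.33 to 6.19). Counts without injury were small, at 4 UMIs for Top2a, 5 for Ctla4, 7 for Gzmk and 8 for Batf.

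Xcl1, a chemokine for cross-presenting dendritic cells, went from 272 to 21.6 CPM (log2 ratio -3.65, 95% interval -4.28 to -3.07) and was found in 23.8% (14.0 to 36.2) and 1.45% (0.398 to 3.68) of thinned T cell barcodes (31.3% and 3.25% unthinned). Trgv2 and Trdv4, variable genes of the gamma delta receptor, went from 121 to 16.0 CPM (log2 ratio -2.92) and from 93.9 to 16.0 CPM (log2 ratio -2.55). Klrc2, an activating lectin-like receptor gene, went from 79.1 to 16.0 CPM (log2 ratio -2.30). Cd160 and Klre1, genes of receptors shared with natural killer cells, were lower in the control pair (-2.29 and -2.10 on the log2 scale) and higher in the flox-labelled pair (1.31 and 1.48). Gata3, a factor of T helper cells, went from 86.5 to 28.6 CPM (log2 ratio -1.60) and Ccr7, the lymph node homing receptor, from 366 to 158 CPM (log2 ratio -1.21). Flox-labelled log2 ratios were -2.19 for Xcl1, -0.60 for Trgv2, -1.90 for Trdv4, -0.52 for Klrc2 and 0.23 for Gata3. The coreceptor genes moved little, with Cd8a going from 163 to 189 CPM (log2 ratio 0.22) and Cd4 from 56.8 to 54.3 CPM (log2 ratio -0.07). Over whole lists, 3 of 20 cytotoxic and effector genes were higher and 4 lower, and 4 of 14 regulatory and activated T cell genes were higher and 1 lower. The infarction library alone brought in 7 of the 20 and 6 of the 14. Of interferon-stimulated genes in T cells 3 of 15 rose and 1 fell, and the list median was -0.10. The 3 that were higher, Isg15, Zbp1 and Ifi27l2a, fell under 2-fold in 3, 4 and 5 alternatives, and the median changed sign in 2.

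Genes that moved the same way in all 4 classes were few. Of 2038 genes measured in all of them, 40 were at least 2-fold higher in every class (1.96%) and 64 lower (3.14%). Those higher included the glycolytic enzymes Gapdh, Tpi1, Pgam1, Pkm and Aldoa, the iron store genes Fth1 and Ftl1, the peroxiredoxins Prdx1 and Prdx5 and the histone variant H2afz. They also included Spp1, Chil3 and Thbs1, high in macrophages, and S100a8 and S100a9, high in neutrophils. The lower group included Smad4, the shared mediator of TGF-beta signals, the chromatin genes Kmt2c and Mga, the nuclease Xrn1 and the cytoskeletal Macf1, Ahnak, Sptan1 and Syne1, along with endothelial Kdr, Flt1, Lpl and Cd36. Without the richest 10%, 5 genes were higher in every class (Spp1, Erh, Gm10076, Mpc1 and BC004004) and 16 lower, of which 13 were among the 64, among them Smad4, Mga, Kmt2c and Xrn1. With possible doublets removed the counts were 8 and 16. Among genes at 0.5 or more of every other population in each class, 4 were higher (H2afz, Psma6, Gm10076 and BC004004) and 8 lower, among them Mga, Macf1, Xrn1, 9930111J21Rik2, Tasor, Dip2b and Smad4. In flox-labelled hearts BC004004 had log2 ratios of 0.13 in endothelium, 0.05 in macrophages, -0.51 in B cells and 0.21 in T cells. Spp1, Erh, Gm10076, Mpc1, H2afz and Psma6 were above 0 in every flox-labelled class.

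Over the 40 genes chosen as higher, the median log2 ratio was 2.16 in endothelium and 2.33 in macrophages, and 2.14 and 2.33 without the richest 10%. In B cells it went from 1.96 to 1.18 and in T cells from 1.72 to 0.99 without those barcodes, and 23 and 19 of the 40 still passed 2-fold. In flox-labelled hearts, which did not choose them, the medians were 1.54, 1.93, 1.36 and 0.82, with 40, 40, 39 and 32 of 40 above 0. Of the 40, 31 were above 0 in all 4 flox-labelled classes, against 671 of all 2038 genes. The flox-labelled T cell values here include the 19 of 58 uninjured barcodes with over 1% neutrophil marker UMIs. Over the 64 lower genes the flox-labelled medians were -0.91, -1.96, -1.65 and -1.94, with 63, 64, 63 and 61 below 0. Of the 64, 59 were below 0 in all 4 flox-labelled classes, against 431 of all 2038 genes.

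**Figure D3:**
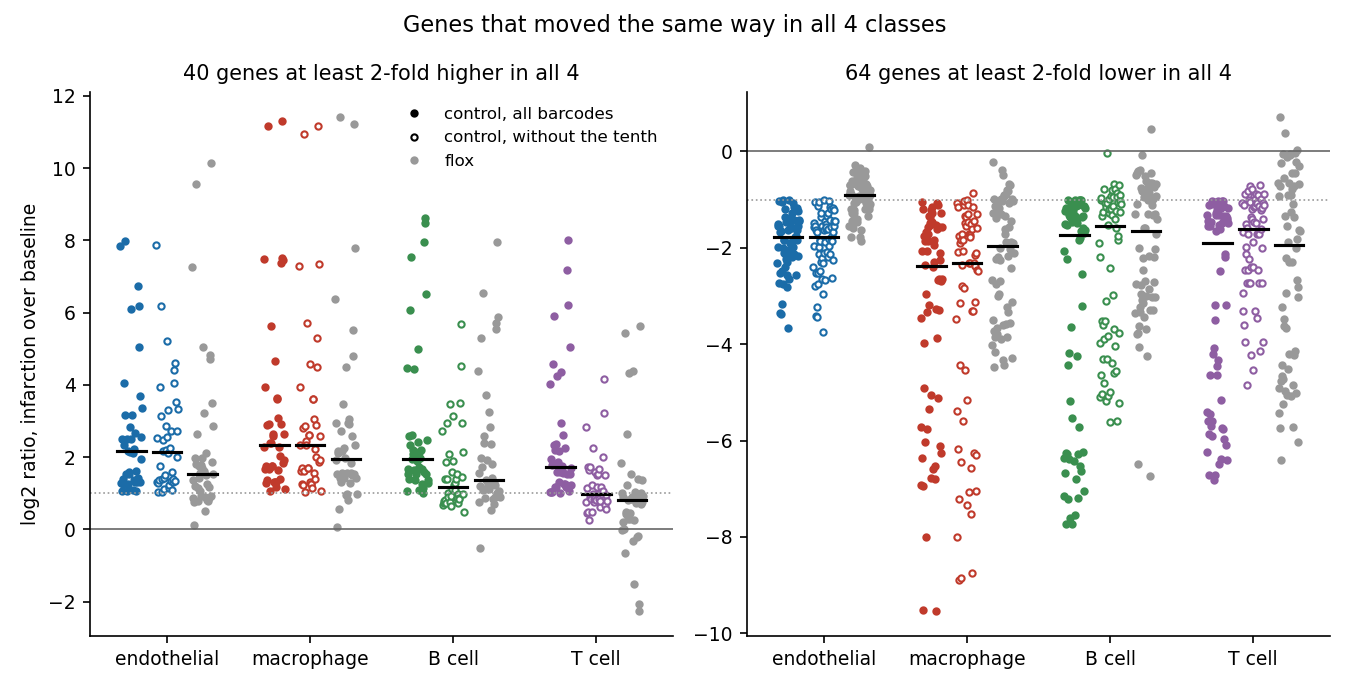
Log2 ratio, infarction over no injury, of the 40 genes at least 2-fold higher (left) and the 64 at least 2-fold lower (right) in all 4 classes of control hearts. Each point is a gene and each bar a median, with filled points for all barcodes, open points without the 10% of barcodes richest in other cells' markers and grey points for the flox-labelled hearts. The B cell and T cell medians of the higher genes drop to 1.18 and 0.99 without those barcodes, while the endothelial and macrophage medians stay near 2.14 and 2.33.

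The glycolytic enzymes Tpi1, Gapdh, Pgam1 and Pkm were among the genes higher in every class. None of them stayed so without the richest 10% or with possible doublets removed. None stood at 0.5 or more of every other population in each class. Their lowest class levels were 0.225 (Tpi1), 0.237 (Gapdh), 0.249 (Pgam1) and 0.310 (Pkm) of another population's level. In B cells and in T cells, 11 of the 14 measured glycolysis and hypoxia-induced genes stood under 0.5 of another population's level. Tpi1, triosephosphate isomerase, went from 58.8 to 349 CPM in endothelium, 91.7 to 576 CPM in macrophages, 32.4 to 179.8 CPM in B cells and 44.5 to 129.6 CPM in T cells, with log2 ratios of 2.57, 2.65, 2.47 and 1.54. Gapdh, which follows it in the pathway, had ratios of 2.15, 2.63, 1.53 and 1.30, and Pgam1, phosphoglycerate mutase, of 2.23, 3.65, 1.96 and 1.55. Pkm, pyruvate kinase, had ratios of 2.68, 3.10, 2.20 and 1.26. Without the richest 10%, Tpi1 stood at 2.14 in B cells and 0.56 in T cells, Gapdh at 1.13 and 0.87, Pgam1 at 1.38 and 0.84, and Pkm at 1.53 and 0.63. The T cell ratios were all under 2-fold without those barcodes.

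Glycolytic promoters are known to hold the hypoxia response element, whose core ACGTG is bound by hypoxia-inducible factors. The stretches before the starts of these 4 genes are shown because they moved together, from RefSeq promoter windows of build GRCm38.p6. Aldoa, also higher in every class, is not shown. Each has 120 bases, 5' to 3' on the gene's strand, with ACGTG or its other-strand form CACGT in capitals. They lie at chr6:124814159-124814278 (minus strand) for Tpi1, chr6:125165774-125165893 (minus) for Gapdh, chr19:41911699-41911818 (plus) for Pgam1 and chr9:59657094-59657213 (plus) for Pkm.
Tpi1: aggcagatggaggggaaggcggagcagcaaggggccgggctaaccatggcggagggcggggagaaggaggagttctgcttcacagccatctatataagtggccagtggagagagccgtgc
Gapdh: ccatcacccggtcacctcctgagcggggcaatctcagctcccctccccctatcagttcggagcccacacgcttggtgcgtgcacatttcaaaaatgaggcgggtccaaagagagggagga
Pgam1: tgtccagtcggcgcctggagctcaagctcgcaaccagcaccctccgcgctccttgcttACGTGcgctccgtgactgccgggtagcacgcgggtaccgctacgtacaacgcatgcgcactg
Pkm: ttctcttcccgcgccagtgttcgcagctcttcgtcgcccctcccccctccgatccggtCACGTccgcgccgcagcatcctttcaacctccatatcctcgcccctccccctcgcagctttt
The Tpi1 and Gapdh stretches end at the base before the start site. The Pgam1 stretch runs from 172 to 53 bases before the start, and the Pkm stretch from 133 to 14. Pgam1 and Pkm held 1 match each in the 250 bases searched before the start, and Tpi1 and Gapdh held none. Pkm had 2 starts, of which 1 held a match, and that start is the one shown. Over all 32851 windows 16.6% held the motif, and over the 1651 matched genes measured in all 4 classes 27.7% did at any start. Of 30 matched members of the glycolysis and hypoxia list, 17 held it (56.7%). The form CACGTG holds both spellings. A match is a description of the letters and not of binding.

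Transcript length separated the shared genes. The longest annotated transcript had a median of 1544 bases over the 40 higher genes, 3011.5 over all 2038 measured and 5326 over the 64 lower. The same order held in each class, with medians of 2009, 3540 and 5224.5 in endothelium, 2031.5, 3293 and 4734.5 in macrophages, 1894, 3376 and 5165 in B cells and 1934.5, 3052.5 and 5053 in T cells for genes higher, measured and lower. Malat1, a long RNA that stays in the nucleus, was lower in each class, from 35321 to 13245 CPM in endothelium, 30379 to 9987 CPM in macrophages, 36205 to 20581 CPM in B cells and 28904 to 17251 CPM in T cells. Whether the length and nuclear RNA differences have a common source was not tested.

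**Figure D4:**
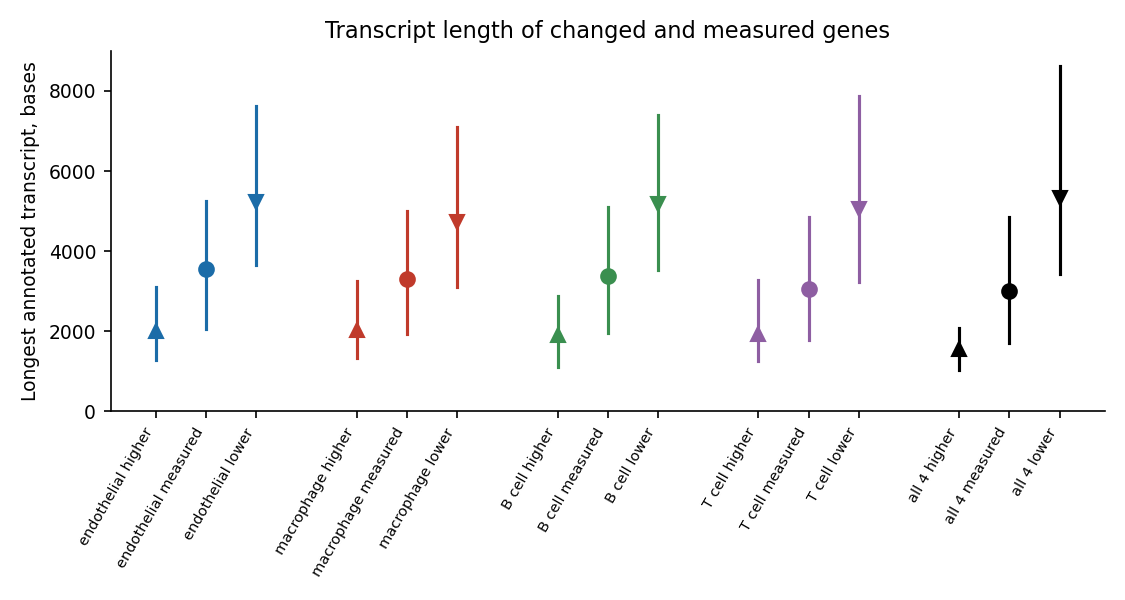
Longest annotated transcript, in bases, of genes higher (upward triangles), measured (circles) and lower (downward triangles) after infarction, with the interquartile range as lines, for each class of control hearts and for genes measured in all 4. Medians run from 1544 bases for genes higher in all 4 to 5326 for those lower in all 4.

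Changes in a single class were counted among the same genes. Among the 2038 genes, 399 were higher in endothelium and 140 of those in no other class, and 330 were higher in macrophages with 78 in no other. In B cells 9 of 147 and in T cells 19 of 113 were higher in that class alone. Genes lower in 1 class alone were 52 of 250 in endothelium, 79 of 305 in macrophages, 19 of 160 in B cells and 19 of 145 in T cells. For few of these did every other class stand near 0 or on its other side. Among genes higher in 1 class alone they numbered 8 in endothelium, 0 in macrophages, 2 in B cells and 2 in T cells. Among those lower they numbered 1, 6, 1 and 0 in the same order. Classes differ in summed UMIs and in other cells' RNA, so a call in 1 class does not show that the others did not change. The genes named as farthest from the other classes need not be called in 1 class alone. Lgals1, galectin-1, was named for its rise in endothelium, from 45.9 to 1037 CPM (log2 ratio 4.50) in endothelium and from 830.4 to 967 CPM (log2 ratio 0.22) in T cells. Slc6a6, the taurine transporter, was named for its fall in endothelium, from 742 to 106 CPM (log2 ratio -2.81). Aprt, a purine salvage enzyme, was named for its rise in macrophages, from 55.4 to 852 CPM (log2 ratio 3.94), and it was also higher in the other classes (log2 ratios of 2.51 in endothelium, 1.66 in B cells and 1.05 in T cells). Tmem176b was named for its fall in macrophages, from 814 to 59.5 CPM (log2 ratio -3.77).

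The flox-labelled hearts gave the same contrast without sharing a library. Of the 679 genes higher in control endothelium 674 were above 0 in flox-labelled hearts, and of the 796 lower 784 were below 0, where 49.0% and 51.0% of all measured genes were. In macrophages these were 572 of 572 and 809 of 814, where 53.7% and 46.3% of all measured genes were, and in B cells 246 of 258 and 385 of 410, against 44.3% and 55.7%. Sizes were smaller, with medians of 1.35 in control and 0.93 in flox-labelled hearts for endothelial genes chosen as higher and -1.42 and -0.80 for those chosen as lower, and of 1.38 and 1.26 and of -1.59 and -1.14 in macrophages. Genotype and library cannot be told apart here. In T cells 155 of 224 (69.2%) and 161 of 203 (79.3%) kept the sign, against 57.5% and 42.5% of all measured genes. In the uninjured flox-labelled library 19 of 58 T cell barcodes held over 1% neutrophil marker UMIs, and S100a9 was at 29465 CPM with them and 7.22 CPM without. Leaving such barcodes out of both flox-labelled libraries, 200 of 224 and 167 of 203 kept the sign, against 54.8% and 45.2%.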

How the data were processed

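Single-cell RNA of hearts was read with the 10x 3' v3.1 method in 4 libraries, and the submitters' processing notes name Cell Ranger 5.0.1 and mm10. The deposited matrices hold whole-number counts of UMIs per gene and barcode, made by the authors and not normalized. The control libraries held 9149 barcodes with 55710468 UMIs without injury and 10203 with 129704045 UMIs after infarction. No doublet caller was run for the main values beyond dropping barcodes in several classes. As an alternative, a simulated-doublet score removed barcodes, 640 without injury and 793 after infarction. UMIs were summed by class and library and scaled to CPM with Python 3.11.15, numpy 2.4.6, scipy 1.17.1 and pandas 2.3.3. With 1 library per group there was no test. Intervals of ratios are exact conditional binomial ones at 95% and cover counting error only. The calculation was tested on simulated data. A gene was marked as possible free RNA when its class level was under 0.1 of that in another population. Members and gene lists were chosen with earlier results of these data known. Named genes were the 10 highest and 10 lowest ratios per class and over all 4 classes, 5 each way that stood farthest from the other classes, up to 4 per gene list, and, of genes called higher in 1 class and lower in another, the 10 whose smaller change was largest. Car4, Fabp4, Gpihbp1, Kdr and Mki67 in endothelium, Apoe, Ccr2, Folr2, Fos, Mrc1, Thbs1 and Trem2 in macrophages, Ighd and Ms4a1 in B cells, Cd4 and Cd8a in T cells, and Pkm and Malat1 were named outside this rule after their values were seen. Gene positions and transcript lengths come from GENCODE vM21. Some genes that the rule named are not reported here.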

Additional observations from a re-analysis of the deposited data

Results flagged for a closer look

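In 26 genes the ratio was at least 2-fold higher in 1 class and at least 2-fold lower in another, and the 10 whose smaller change was largest are given, each as CPM without injury and after infarction. None of these differences was tested. Prg4, lubricin, went from 11 to 73.3 CPM (log2 ratio 2.74) in macrophages and from 101 to 11.4 CPM (log2 ratio -3.15) in endothelium, a gap of 5.89, and with no fibroblast limit its endothelial ratio was -0.96. Tmem176a went from 11.9 to 59.9 CPM (log2 ratio 2.33) in B cells and from 467 to 46.2 CPM (log2 ratio -3.34) in macrophages (gap 5.67), and its neighbour Tmem176b from 42.6 to 155 CPM (log2 ratio 1.86) in endothelium and from 814 to 59.5 CPM (log2 ratio -3.77) in macrophages (gap 5.63). F13a1, a coagulation factor XIII subunit, went from 6.48 to 96.2 CPM (log2 ratio 3.89) in B cells and from 1834 to 532 CPM (log2 ratio -1.79) in macrophages (gap 5.68). Mrc1 was read as 0 and 82 UMIs in T cells and went from 1867 to 289 CPM (log2 ratio -2.69) in macrophages (gap 5.64), with 48 of the 82 T cell UMIs in 1 barcode. The B cell and T cell values of these genes stood at 0.309 (Tmem176a), 0.181 (F13a1) and 0.197 (Mrc1) of the level in the population where each was highest.

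Socs3 went from 42.0 to 254 CPM (log2 ratio 2.59) in T cells and from 706 to 177 CPM (log2 ratio -2.0) in macrophages (gap 4.59). Igfbp4, a binding protein for insulin-like growth factors, went from 42.3 to 150.2 CPM (log2 ratio 1.83) in endothelium and from 226 to 27.3 CPM (log2 ratio -3.05) in macrophages (gap 4.88), and with no fibroblast limit its endothelial ratio was -0.63. Marcksl1 went from 13.4 to 126 CPM (log2 ratio 3.24) and from 199 to 65.7 CPM (log2 ratio -1.60) (gap 4.84), and Fgfr1, a fibroblast growth factor receptor gene, from 20.5 to 56.0 CPM (log2 ratio 1.45) and from 84.0 to 10.3 CPM (log2 ratio -3.03) (gap 4.48), in the same classes. With no fibroblast limit the endothelial ratio of Fgfr1 was 0.47. Smpdl3a went from 54.4 to 220.2 CPM (log2 ratio 2.02) in macrophages and from 142 to 42.8 CPM (log2 ratio -1.73) in endothelium (gap 3.75).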

How the results depend on the processing

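No paired analysis was possible because only 1 library stands for each group, which also kept any library from being left out. Of 130 alternative counts of genes, 95 stayed within 1.5 times the main count. Leaving out the 10% of barcodes richest in other cells' markers (chosen after seeing the data) gave 120 higher and 254 lower in B cells, 104 and 123 in T cells, and 5 and 16 in all 4 classes. Removing doublets gave 121 and 270, 106 and 111, and 8 and 16. Leaving out genes under 0.5 of another population's level (also chosen after) gave 521 lower in macrophages, 49 and 215 in B cells, 55 and 109 in T cells, and 4 and 8 in all 4. Without genes of possible free RNA 40 were lower in all 4. The mean of CPM per barcode gave 162 higher in B cells and 22 in all 4. With no fibroblast limit 332 were lower in T cells, and 71 higher and 107 lower in all 4. With a floor of 3 UMIs as the only filter, higher and lower counts were 4021 and 2228 in endothelium, 1402 and 6397 in macrophages, 902 and 2711 in B cells, 636 and 2888 in T cells, and 147 and 441 in all 4.

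Of 1911 alternative medians of gene lists 107 had the other sign, 33 of them where the main median was at least 2-fold. Of 7481 alternative ratios of named genes, 3 turned where the main ratio was at least 2-fold. These are given here. Leaving out genes under 0.5 of another population moved endothelial medians to 0.19 (circadian), -2.49 (chemokines), -0.50 (iron and haem) and -1.0 (gamma delta), macrophage medians to 0.69 (capillary) and 5.62 (endothelial matrix), B cell medians to -0.57 (monocyte) and -0.73 (gamma delta), and the T cell monocyte median to -0.44. Without possible free RNA the endothelial chemokine median was -1.75. Removing doublets moved T cell medians to -0.48 (resident macrophage) and -0.046 (monocyte), and B cell medians to -1.87 (scavenger), -2.58 (complement) and -0.31 (cytotoxic). Without the richest 10% these were -0.53 and -0.093 in T cells, and -1.66 (scavenger) and -0.18 (cytotoxic) in B cells. Without the 10% richest in neutrophil markers, complement genes were at -2.27 in B cells and -0.017 in T cells. With no fibroblast limit they were at -3.08 and -1.45, the endothelial median of B1 genes was 0.044, Csf1 was at 0.40 and Igfbp4 at -0.63 in endothelium. With the floor alone, complement was at -0.78 in B cells and -1.41 in T cells, resident macrophage genes at -0.15 in T cells, follicular B genes at 0.36, B1 genes at 1.26 and naive T genes at 0.26 in endothelium, and plasma cell genes at -0.17 and regulatory T genes at -0.41 in macrophages. Class limits doubled moved gamma delta genes in B cells to -0.70, and the mean of CPM per barcode moved Top2a in B cells to -0.17. The cause was not tested. Depth limits T cells without injury most, at 404617 UMIs.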
